A study of Danio rerio with 2 samples.

Results

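Smooth muscle contractile genes encode the filaments and the regulatory proteins with which vascular smooth muscle cells hold tension, and a partly overlapping set is used by activated fibroblasts. Here 6 of them were followed, chosen by symbol among the 32057 genes listed in both libraries: acta2 (ENSDARG00000045180, smooth muscle α-actin), tagln (ENSDARG00000045408, transgelin, an actin-binding protein), mylka (ENSDARG00000034801, a myosin light chain kinase), myh11a (ENSDARG00000009782, a smooth muscle myosin heavy chain), tpm4b (ENSDARG00000019128, a tropomyosin) and fhl2a (ENSDARG00000042018, a LIM-domain protein that binds to the cytoskeleton and to transcriptional regulators). Each symbol named a single row in both libraries. In smooth muscle, calcium-activated light chain kinase phosphorylates the myosin regulatory light chain, and the myosin then pulls on actin filaments along which tropomyosin and other actin-binding proteins lie. The actin and transgelin genes are common targets of serum response factor and its myocardin-related partners, which respond to the state of the actin cytoskeleton, and in injured hearts of mammals acta2 is the usual label of myofibroblasts, whereas myh11 is regarded as the stricter label of mature smooth muscle.

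The study compared the border zone and injured tissues of adult zebrafish ventricles at 120 hours post-cryoinjury (hpci), a freezing injury after which the zebrafish heart regenerates, by droplet-based single-cell RNA-seq. The mutant library came from cd74a; cd74b double mutants, made by CRISPR-Cas9, which carry the alleles bns454 and bns456 in the 2 zebrafish genes for the invariant chain, which escorts MHC class II molecules, and the other library came from wild-type fish, all of the AB strain. Each library was a pool of 4 ventricles, from 2 females and 2 males. Genotype, pool and library therefore cannot be told apart, and no test between genotypes was possible: the intervals below are 95% intervals that cover counting error only.

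The mutant library held 15142 barcodes and 22991961 unique molecular identifiers (UMIs, each a captured transcript molecule), and the wild-type library held 4607 barcodes and 7395919 UMIs. A total of 7174 mutant and 3589 wild-type barcodes had more than 300 genes and at most 70% mitochondrial UMIs and were kept as cells, with medians of 1049 and 1107 non-mitochondrial UMIs; 15 barcode sequences occurred in both libraries, 7 of them among the kept cells. Mitochondrial genes took a median of 22.3% of UMIs in mutant and 15% in wild-type cells, and the share of ribosomal protein genes among all other UMIs was 47.8% in the mutant and 39.6% in the wild-type library. The targeted genes followed the labels: cd74a stood at 86.9 UMIs per 1000000 non-mitochondrial UMIs (CPM) in mutant and 1170.3 CPM in wild-type cells, and cd74b at 49.8 CPM in mutant and 496 CPM in wild-type cells. Cells were grouped into 16 clusters with the 6 genes, 68 further contractile and cytoskeletal genes and all actin genes left out of the clustering, so that the groups do not rest on the genes described.

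No cluster could be named mural (pericyte or smooth muscle) from the 19 mural markers used. Of these, kcnj8, gucy1a1 and itga8 had no UMI in any kept cell, and abcc9, heyl, cd248b, gucy1b1 and ndufa4l2a had between 0 and 3 UMIs in either library. The better-known mural genes were present in cells of other classes: pdgfrb had 248 of its 351 UMIs in fibroblast-like cells in the mutant and 267 of 356 in the wild-type library, and rgs5b had 1002 of 1687 and 384 of 973 UMIs in endothelial-like cells. Of these rgs5b UMIs, 926 in the mutant and 304 in the wild-type library lay in the endothelial-like cluster 7. There rgs5b was among the leading genes, at 1202 and 1976 CPM, against 66.1 and 218 CPM in the endothelial-like cluster 5. Leaving the contractile genes in the clustering, or clustering at a finer resolution of 2, gave no cluster of mural-like cells either. Accordingly, the 6 genes are described in the cell groups that carried them, the fibroblast-like clusters 1, 4 and 9 and the cardiomyocyte-like clusters 11 and 14, against the remaining cells.

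Most tagln, acta2 and tpm4b molecules were found in fibroblast-like cells. These cells (2335 mutant and 1239 wild-type) contributed 36.2% of the non-mitochondrial UMIs of the mutant library and 41.5% of those of the wild-type library, but 68.7% and 69.8% of the tagln UMIs, 69.4% and 84.1% of the tpm4b UMIs, and 55.8% and 62.2% of the acta2 UMIs. For mylka the shares were 38.7% in the mutant and 65.6% in the wild-type library, and for fhl2a 44.5% and 68.8%. The exception was myh11a, of which fibroblast-like cells held 20.5% of the UMIs in the mutant and 29.1% in the wild-type library, below their share of all UMIs.

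**Figure D1:**
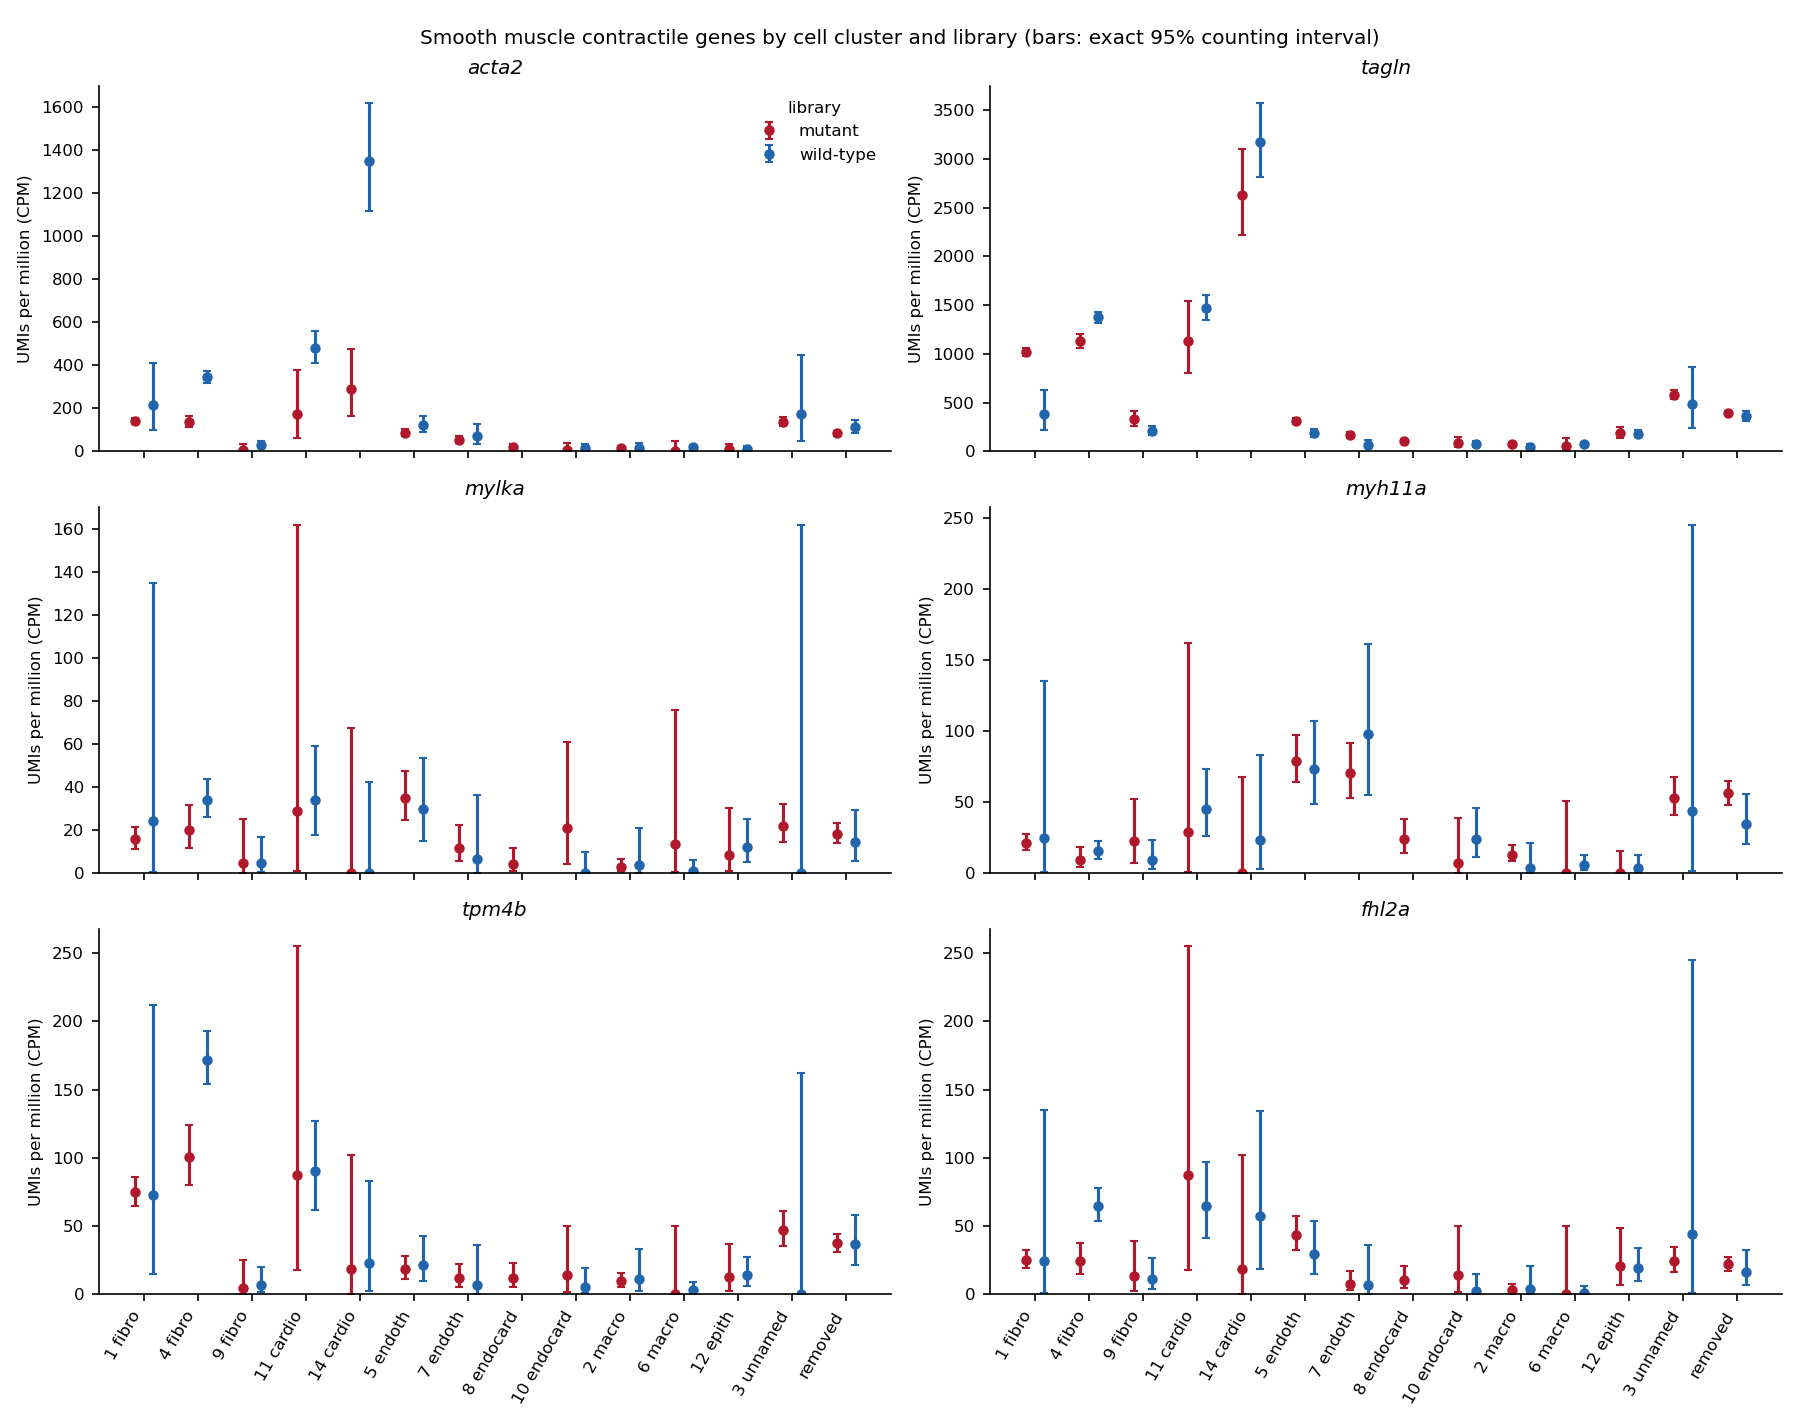
Level of each gene (CPM, y axis) in 13 of the 16 cell clusters (clusters 13, 15 and 16 are not shown) and in the removed barcodes of the mutant (red, left) and wild-type (blue, right) library, where a cluster held at least 20 cells; error bars are exact Poisson 95% intervals. Levels of acta2 and tagln in both libraries stood highest in cluster 14, whereas myh11a in both libraries stood highest in the endothelial-like clusters 5 and 7. The myh11a intervals of clusters 5 and 7 overlapped those of other clusters, such as cluster 3 in the mutant and cluster 11 in the wild-type library.

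Within each library, fibroblast-like cells were then compared with all other kept cells. For tagln the level was 1004 CPM in fibroblast-like and 259 CPM in other cells of the mutant library, a log2 ratio of 1.95 (1.87 to 2.04), and 1130.4 against 348 CPM in the wild-type library, a log2 ratio of 1.70 (1.60 to 1.80). For tpm4b the levels were 76.6 against 19.2 CPM in the mutant library (log2 ratio 2.00) and 138 against 18.6 CPM in the wild-type library (log2 ratio 2.90). For acta2 they were 133 against 59.7 CPM in the mutant (log2 ratio 1.15) and 283 against 122 CPM in the wild-type library (log2 ratio 1.21). These 3 genes were thus more than 2-fold higher in fibroblast-like cells of both libraries with the settings used here. The kinase gene mylka stood at 15.9 against 14.3 CPM in the mutant library, a log2 ratio of 0.15 whose interval (−0.35 to 0.64) includes 0, but at 27.9 against 10.4 CPM in the wild-type library, and fhl2a stood at 24.4 against 17.3 CPM in the mutant and 53.7 against 17.3 CPM in the wild-type library. The myosin gene myh11a was the only one lower in fibroblast-like cells, at 18.4 against 40.5 CPM in the mutant library (log2 ratio −1.14, −1.55 to −0.75) and 14.2 against 24.6 CPM in the wild-type library (−0.79, −1.43 to −0.18). Altogether 3 of the 6 genes in the mutant and 5 of the 6 in the wild-type library were at least 2-fold higher in fibroblast-like cells, where 7.28% of 6676 genes and 8.08% of 5716 genes with at least 50 UMIs were, and 1 of 6 and 0 of 6 were 2-fold lower, where 10.3% and 16.9% were. With cells of more than 500 genes only, the counterpart of cluster 4 was not named fibroblast-like and stood among the other cells, and the log2 ratio was then 0.02 in the mutant and 0.67 in the wild-type library for acta2, 1.09 and 0.72 for tagln, and 0.67 and −0.15 for tpm4b. The acta2 ratio also missed 2-fold as a mean over cells (0.76 in the mutant and 0.90 in the wild-type library) and, among mutant cells, at the finer clustering (0.85) and without cluster 1 (0.90), and tpm4b did so there at the finer clustering (0.79).

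**Figure D2:**
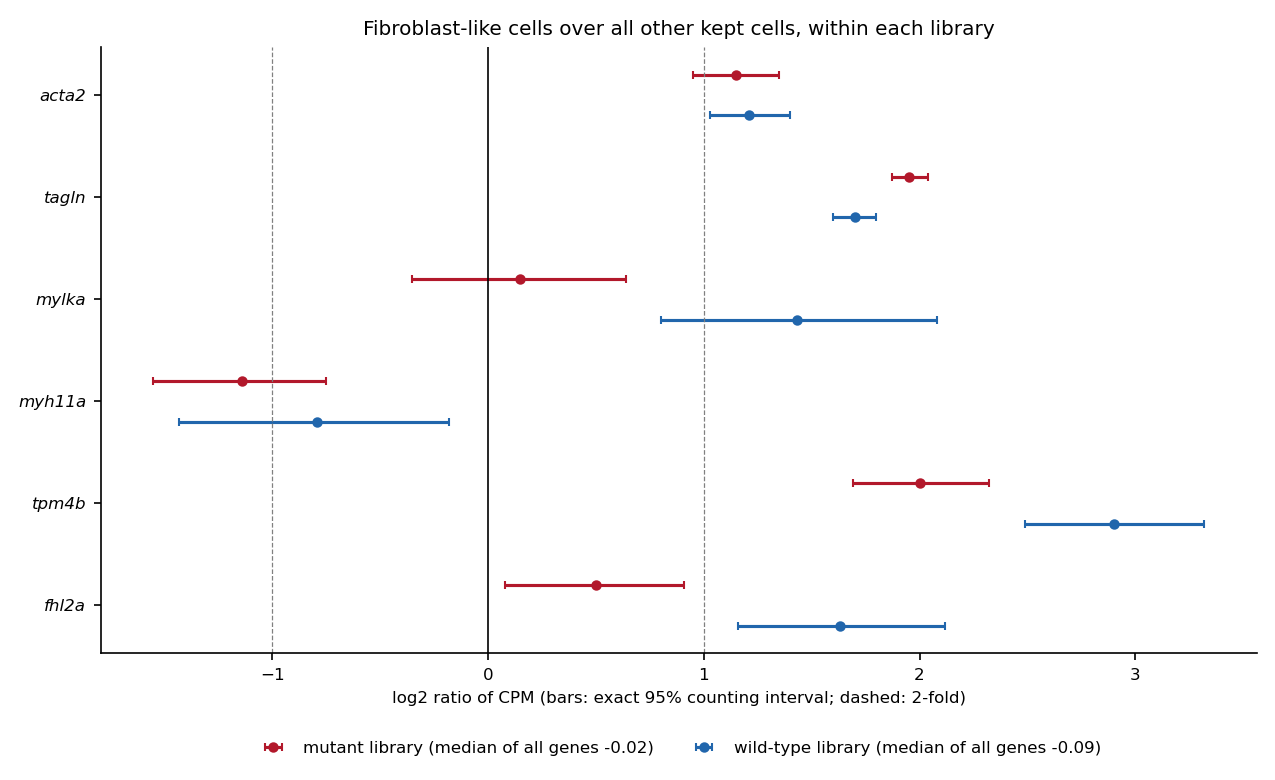
Log2 ratio of the level in fibroblast-like cells over all other kept cells (x axis) for each gene, within the mutant (red, upper) and wild-type (blue, lower) library, with exact 95% counting intervals. The genes tagln, tpm4b and acta2 lay above 1 in both libraries and myh11a below 0.

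The fibroblast-like cells were not uniform. Cluster 4 (426 mutant and 897 wild-type cells) was led by the matrix genes col11a1a and fn1a and had the highest tpm4b level of any cluster with at least 20 cells, 100.4 CPM in mutant and 172 CPM in wild-type cells, although its interval overlapped those of clusters 1, 11, 14 and 15 in the mutant library and those of clusters 1 and 3, with 29 and 31 cells, in the wild-type library. Cluster 9 (149 and 313 cells), led by tfa, rbp4 and ccl25b, was nearly devoid of it, with 1 UMI (4.48 CPM) in mutant and 3 UMIs (6.84 CPM) in wild-type cells. The same contrast held for acta2, with 138 CPM in cluster 4 against 8.97 CPM in cluster 9 of the mutant library and 347 against 29.6 CPM in the wild-type library. For tagln it was smaller, 1132 against 332 CPM in the mutant library (log2 ratio 1.77, 1.43 to 2.13) and 1375 against 212 CPM in the wild-type library (log2 ratio 2.70, 2.40 to 3.01). This pair of clusters was chosen after the values were seen. For myh11a the intervals of the ratio included 0 in both libraries, with 8 against 5 UMIs in the mutant and 27 against 4 UMIs in the wild-type library.

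Cluster 1 (1760 mutant and 29 wild-type cells) was almost wholly of the mutant library and, within it, resembled cluster 4 in these genes. In mutant cells of cluster 1 and cluster 4, acta2 stood at 142 and 138 CPM, tagln at 1019.6 and 1132 CPM, and fhl2a at 25.3 and 24.5 CPM. The log2 ratio of cluster 1 over cluster 4 was 0.04 for acta2 (−0.26 to 0.35), −0.15 for tagln (−0.26 to −0.04) and −0.42 for tpm4b (−0.80 to −0.04). For myh11a, at 21.1 CPM in cluster 1 and 9.34 CPM in cluster 4 on 54 and 8 UMIs, it was 1.17 (0.09 to 2.46).

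The highest acta2 and tagln levels were not found in fibroblast-like cells but in the small cardiomyocyte-like cluster 14, which held 33 mutant and 64 wild-type cells. There tagln reached 2631 CPM (2219 to 3098) in mutant and 3174 CPM (2811 to 3570.3) in wild-type cells, and acta2 292 CPM (167 to 475) and 1352 CPM (1119 to 1619). The cardiomyocyte-like cluster 11 came next in wild-type cells, with 1473 CPM of tagln and 482 CPM of acta2 over 357 cells, and its tagln interval overlapped that of cluster 4. These levels rest on few cells: a single wild-type cell of cluster 14 carried 59 of its 118 acta2 UMIs, and without the top cell for each gene the wild-type levels were 707 CPM of acta2 and 2089.5 CPM of tagln. Other genes of the group were near the limit of detection in the same cells. No mylka UMI was seen in cluster 14, which allows up to 67.4 CPM in mutant and 42.3 CPM in wild-type cells (upper bound of the exact interval), and tpm4b had 1 and 2 UMIs.

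The unnamed cluster 3 (1456 mutant and 31 wild-type cells), led by haemoglobin and cardiomyocyte genes, is counted among the other kept cells and was almost wholly of the mutant library. Its mutant cells carried 136 CPM of acta2, 579.7 CPM of tagln and 52.9 CPM of myh11a. Of these only the acta2 level was close to that of mutant fibroblast-like cells, and that of myh11a lay near the removed barcodes of the same library (55.9 CPM).

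Actin transcripts are similar in sequence, and reads of acta2 could be exchanged with those of the muscle actins in the counting. In cluster 14, acta1b had 381 UMIs in mutant and 858 in wild-type cells, against 16 and 118 UMIs of acta2, so that the acta2 values of cardiomyocyte-like cells are uncertain. In fibroblast-like cells acta1b had 1028 and 460 UMIs, against 483 and 637 of acta2, and its level, 282 CPM in mutant and 204 CPM in wild-type cells, had the opposite order of the libraries. This acta1b level was not particular to them, with 236 and 186 CPM in macrophage-like and 245 and 249 CPM in endothelial-like cells. It lay below the removed barcodes, at 938 and 1186 CPM. Other muscle actin genes had the order of acta2 in fibroblast-like cells, by little, with ACTC1 at 87.3 and 97.2 CPM and acta1a at 32.7 and 34.2 CPM. In cluster 4 acta1b had that order as well, at 182 CPM in mutant and 199 CPM in wild-type cells. There ACTC1 stood at 63.0 and 108 CPM and acta1a at 17.5 and 37.2 CPM. Whether reads were exchanged was not tested. In fibroblast-like cells the cytoplasmic β-actin genes had the same order as acta2, with actb1 at 1348 CPM in mutant and 2227 CPM in wild-type cells and actb2 at 2935 and 5116 CPM. Other cells shared this order, with actb2 at 5329.7 and 10518 CPM in macrophage-like and 2361 and 4327 CPM in endothelial-like cells. The removed barcodes did so too, at 3730.0 and 5054 CPM.

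Cluster 14 had the highest sum over the further 68 contractile and cytoskeletal genes, 16537 CPM in mutant and 20486 CPM in wild-type cells. Cluster 11 followed with 14142 and 15795 CPM, whereas cluster 4 stood at 4369 and 6013 CPM. Most of the sum in cluster 14 was tpm4a, a tropomyosin gene also used in zebrafish heart muscle, at 10763 and 12202 CPM. The sum thus ranked cardiomyocyte-like cells first.

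In both libraries myh11a was higher in endothelial-like than in fibroblast-like cells. In the mutant library this also held for mylka, at 15.9 CPM in fibroblast-like and 25.5 CPM in endothelial-like cells (log2 ratio −0.68, −1.25 to −0.10), whereas in the wild-type library it stood at 27.9 and 23.0 CPM (0.28, −0.62 to 1.31). The myh11a level of endothelial-like cells was 75.5 CPM (63.7 to 88.8) in mutant and 80.5 CPM (58.0 to 109) in wild-type cells, the highest of the named classes in both libraries. Fibroblast-like cells had 18.4 CPM in the mutant and 14.2 CPM in the wild-type library, on 67 and 32 UMIs, and these values lay under those of the removed barcodes, 55.9 and 34.6 CPM (187 and 17 UMIs). Endothelial-like cells stood above the removed barcodes in both libraries, by less in the mutant (75.5 against 55.9 CPM) than in the wild-type library (80.5 against 34.6 CPM). The log2 ratio of fibroblast-like over endothelial-like cells was −2.04 (−2.48 to −1.61) in the mutant and −2.50 (−3.21 to −1.81) in the wild-type library, where 4.57% of 4533 and 8.92% of 3420 genes were at least 2-fold lower. Both endothelial-like clusters took part. Cluster 5, led by vwf, bmp6 and edn2, had 79.1 CPM in mutant and 73.4 CPM in wild-type cells (91 and 27 UMIs). Cluster 7, with rbp2a and the mural marker rgs5b among its leading genes, had 54 and 15 UMIs over 420 and 83 cells. The intervals of clusters 5 and 7 overlapped in each library.

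The myh11a molecules of endothelial-like cells were spread over many cells. At a common depth of 500 UMIs per cell, 3.71% (2.68% to 5.0%) of mutant and 5.36% (3.21% to 8.33%) of wild-type endothelial-like cells had a myh11a UMI, against 0.736% and 0.106% of macrophage-like cells, a type that should lack the gene. Some of the cells with the most myh11a carried the endothelial cadherin cdh5, such as a mutant cell with 6 UMIs of myh11a, 6 of cdh5 and none of acta2 or tagln. In 2 others of the mutant library there was no cdh5 UMI, but 41 and 27 UMIs of acta2, 22 and 36 of tagln and 2 each of mylka. Over clusters and libraries (27 sums of at least 20 cells, which share 2 libraries), the Pearson correlation of myh11a with the other 5 genes lay between 0.07 (tagln) and 0.37 (acta2). Those of mylka with acta2 and tagln were as low, 0.24 and 0.23, and with fhl2a and tpm4b 0.47 and 0.68, whereas the pairs among acta2, tagln, tpm4b and fhl2a lay between 0.65 and 0.86. The genes nearest to myh11a by this measure were ptprb, rgcc and rhoca (0.704, 0.686 and 0.686), of which ptprb encodes a phosphatase of endothelial cells.

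Single cells were also picked out by mural markers, which does not make them mural cells. Of the notch3 UMIs of kept cells, 55 of 166 in the mutant and 43 of 76 in the wild-type library lay in fibroblast-like cells. This class held 36.2% and 41.5% of all non-mitochondrial UMIs. Its notch3 level was 15.1 CPM in the mutant and 19.1 CPM in the wild-type library, against 16.5 and 14.0 CPM in all kept cells. Endothelial-like cells stood at 25.5 and 15.3 CPM of notch3. After the clusters had been examined, cells with a UMI of notch3, the Notch receptor of mural cells, and of pdgfrb, rgs5a or cspg4 were counted, which gave 15 mutant and 17 wild-type cells. Of the mutant cells 4 lay in endothelial-like clusters, had no cdh5 UMI and carried 3415 CPM of acta2 (2681 to 4287), 3045 CPM of tagln, 646 CPM of myh11a (353 to 1084) and 231 CPM of mylka. In 2 of them lay most of these molecules, with 41 and 27 acta2 UMIs and 6 and 5 myh11a UMIs. No wild-type cell of this kind lay in an endothelial-like cluster. Fibroblast-like clusters held 8 of the mutant cells, with 196 CPM of acta2, 1768 CPM of tagln and no myh11a UMI, and 14 of the wild-type cells, with 879 CPM of acta2, 3167 CPM of tagln and 26.9 CPM of myh11a on 3 UMIs. Both groups carried postnb, the periostin gene of activated fibroblasts, at 3979 CPM in the mutant and 10685 CPM in the wild-type cells. The wild-type values rest mostly on very deep cells, with 35040, 24988 and 22845 UMIs. These carried 25, 12 and 34 of the 98 acta2 UMIs and 114, 82 and 92 of the 353 tagln UMIs. Of the 1191 postnb UMIs they carried 559, 361 and 130, and doublets among such cells were not removed. A myh11a UMI was found in all 4 of the mutant cells in endothelial-like clusters, against 0 of 8 mutant and 2 of 14 wild-type cells in fibroblast-like clusters, at unequal median depths of 4861, 1884 and 2893 UMIs, and with so few cells the numbers cannot be compared between groups. Without the cell richest in acta2, the level of acta2 in endothelial-like cells was 51.8 CPM in the mutant and 76.9 CPM in the wild-type library, against 72.9 and 109 CPM with it.

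The study's comparison asks what the loss of cd74a and cd74b does to the cells around the injury. In fibroblast-like cells acta2 was lower in the mutant library, at 133 CPM (121 to 145) in mutant and 283 CPM (261 to 305) in wild-type cells. The LIM gene fhl2a was lower by a like amount, at 24.4 CPM (19.6 to 30.1) in mutant and 53.7 CPM (44.5 to 64.1) in wild-type cells. For tpm4b the levels were 76.6 and 138 CPM, and for mylka 15.9 and 27.9 CPM. The level of tagln was closer, at 1004 CPM (972 to 1037) in mutant and 1130.4 CPM (1087 to 1175) in wild-type cells, and myh11a stood at 18.4 and 14.2 CPM with overlapping intervals.

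As log2 ratios of mutant over wild-type, these differences were −1.09 (−1.27 to −0.92) for acta2, −1.14 (−1.55 to −0.73) for fhl2a, −0.85 (−1.09 to −0.62) for tpm4b, −0.81 (−1.35 to −0.27) for mylka, −0.17 (−0.24 to −0.10) for tagln and 0.37 (−0.26 to 1.03) for myh11a. Thus 2 of the 6 genes were at least 2-fold lower and none 2-fold higher, where 8.43% and 2.67% of 5124 genes with at least 50 UMIs were. The median gene stood at −0.37 in this comparison, and relative to it the values were −0.73 for acta2, −0.77 for fhl2a, −0.49 for tpm4b, −0.45 for mylka, 0.20 for tagln and 0.74 for myh11a. On that scale no gene of the 6 was 2-fold lower, and tagln changed sign. The ribosomal share also differed between the libraries. With ribosomal protein genes left out of the total, no gene of the 6 was 2-fold lower either. The cause of the ratios was not tested. The acta2 ratio also stayed short of 2-fold with ribosomal protein genes left out of the total (−0.91), as a mean over cells (−0.85), with the contractile genes left in the clustering (−0.88), without cells of more than 10000 UMIs (−0.98) and within cluster 1, where the wild-type library had 29 cells (−0.62). Within clusters 1 and 9 the fhl2a ratio was 0.07 and 0.24, on 1 and 5 wild-type UMIs, and both intervals include 0.

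**Figure D3:**
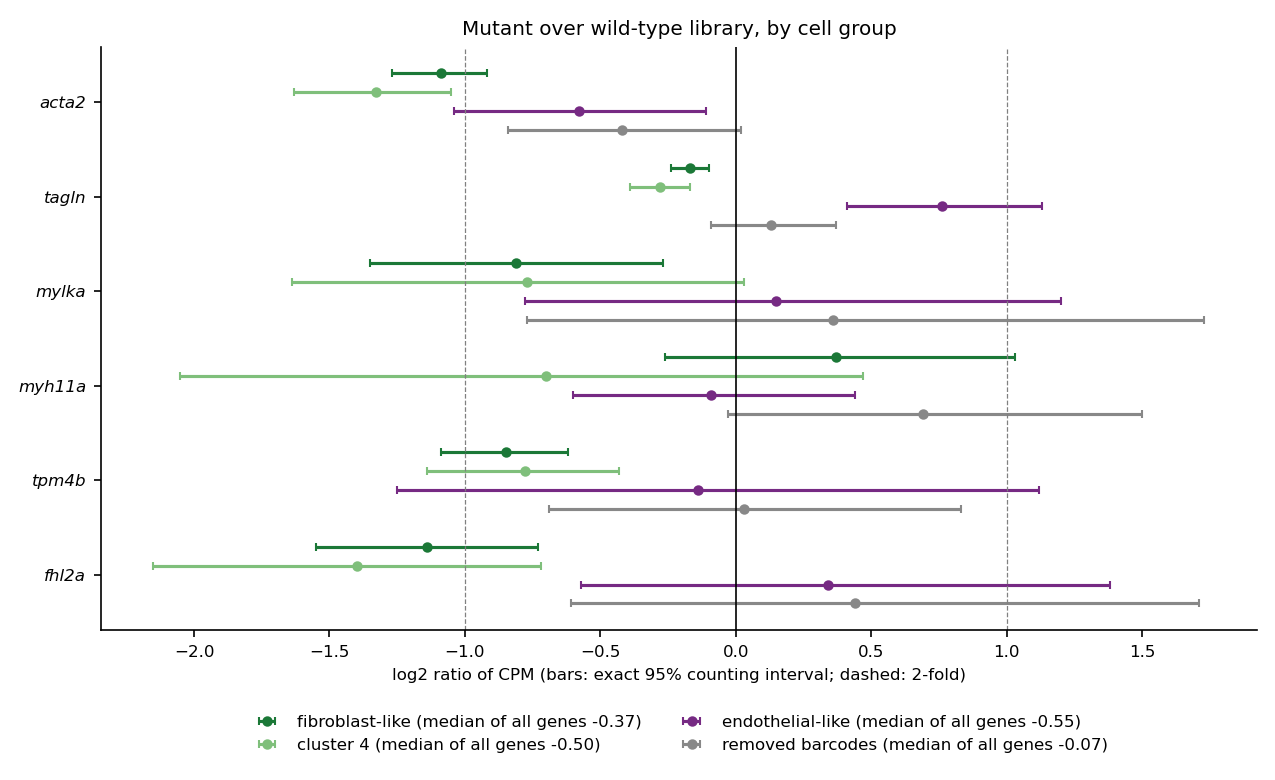
Log2 ratio of the level in the mutant over the wild-type library (x axis) for each gene in fibroblast-like cells, cluster 4, endothelial-like cells and removed barcodes, with exact 95% counting intervals; the legend gives the median over genes that reached 50 UMIs. The intervals of acta2, fhl2a, tpm4b and tagln lay below 0 in fibroblast-like cells and in cluster 4, where the medians over genes were also below 0. That of mylka lay below 0 in fibroblast-like cells only. In endothelial-like cells the interval of tagln lay above 0 and that of acta2 below 0.

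Because cluster 1 was almost wholly of the mutant library, the genotypes were also compared within cluster 4, which held 426 mutant and 897 wild-type cells. There acta2 stood at 138 CPM (114 to 165) in mutant and 347 CPM (319.8 to 375) in wild-type cells, a log2 ratio of −1.33 (−1.63 to −1.05), and fhl2a at 24.5 and 64.8 CPM, a log2 ratio of −1.40 (−2.15 to −0.72). For tpm4b the ratio was −0.78 and for tagln −0.28, with a median of −0.50 over all genes. Relative to that median tagln was 0.22 higher and acta2 0.83 lower on the log2 scale. Of the 5 genes with at least 50 UMIs, 2 were at least 2-fold lower and 0 were 2-fold higher, where 16.4% and 1.06% of 3015 genes were, but fhl2a reached 50 UMIs only through the wild-type cells (21 and 115 UMIs). The acta2 ratio of cluster 4 or its counterpart was short of 2-fold in 4 of 14 alternatives, with −0.83 relative to the median gene, −0.87 at the finer clustering, −0.88 with the contractile genes left in the clustering and −0.30 in cells of more than 500 genes. In cluster 9 the counts were too low for most of the genes, and tagln there stood at 332 CPM in mutant and 212 CPM in wild-type cells, with a log2 ratio of 0.65 (0.18 to 1.1).

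The proportion of tagln to acta2 molecules differed between the libraries. In fibroblast-like cells there were 7.58 tagln UMIs per acta2 UMI in the mutant and 4.00 in the wild-type library, in cluster 4 there were 8.22 and 3.97, and in the cardiomyocyte-like cluster 11 there were 6.50 and 3.06, the last on 6 mutant acta2 UMIs. Endothelial-like cells had 3.48 and 1.37. The removed barcodes differed in the same direction, with 4.75 and 3.24. This proportion does not depend on the total by which levels were scaled, and its relation to the composition of the pools was not tested.

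The acta2 molecules were concentrated in few cells. In fibroblast-like cells of the mutant library, 210 of 2335 cells carried its 483 UMIs and the 10 highest cells carried 25.1% of them, whereas in the wild-type library 127 of 1239 cells carried 637 UMIs and the 10 highest carried 37.4%. The highest single cells had 29 acta2 UMIs in the mutant and 38 in the wild-type library. A single acta2 UMI was all that 129 of the 210 mutant and 47 of the 127 wild-type cells had. For tagln the 10 highest cells carried 10.2% in the mutant and 25.7% in the wild-type library. A fixed 10 cells are a larger part of the smaller group, and in cluster 4, where the wild-type group was the larger, the 10 highest cells carried 50.8% of the acta2 UMIs in the mutant and 38.7% in the wild-type library. Each library had 4 fibroblast-like cells with over 10000 UMIs. They carried 1.24% of the acta2 and 1.48% of the tagln UMIs of the class in the mutant and 11.1% and 11.4% in the wild-type library. Of all non-mitochondrial UMIs of the class they held 1.37% in the mutant and 4.33% in the wild-type library. Doublets among such cells were not removed.

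At a common depth of 500 UMIs per cell, the cells with a molecule of each gene were counted. A tagln UMI was found in 28.1% (26.2% to 29.9%) of 2323 mutant and 25.2% (22.8% to 27.7%) of 1235 wild-type fibroblast-like cells, against 4.49% and 4.25% of macrophage-like cells. An acta2 UMI was found in 4.18% (3.40% to 5.07%) of mutant and 7.13% (5.75% to 8.71%) of wild-type fibroblast-like cells, against 1.25% and 1.49% of macrophage-like cells. The shares were 48.6% and 45.0% for tagln and 8.99% and 10.3% for acta2 without thinning, at median depths of 1158 and 1314 UMIs in fibroblast-like and 1146 and 1086 in macrophage-like cells. The share of cells with an acta2 molecule thus differed between the libraries at 500 UMIs, but a share after thinning also depends on the level. At full depth the shares were closer. Of the cells with acta2 at full depth, 129 of 210 mutant and 47 of 127 wild-type cells had a single UMI. Cells with UMIs of both acta2 and tagln made up 2.58% (1.98% to 3.31%) of mutant and 5.18% (4.01% to 6.57%) of wild-type fibroblast-like cells, and cells with at least 2 of the 6 genes 4.99% and 7.53%, against 0.589% and 0.319% of macrophage-like cells. At least 3 of the genes were found together in 0.818% of mutant and 2.02% of wild-type fibroblast-like cells.

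**Figure D4:**
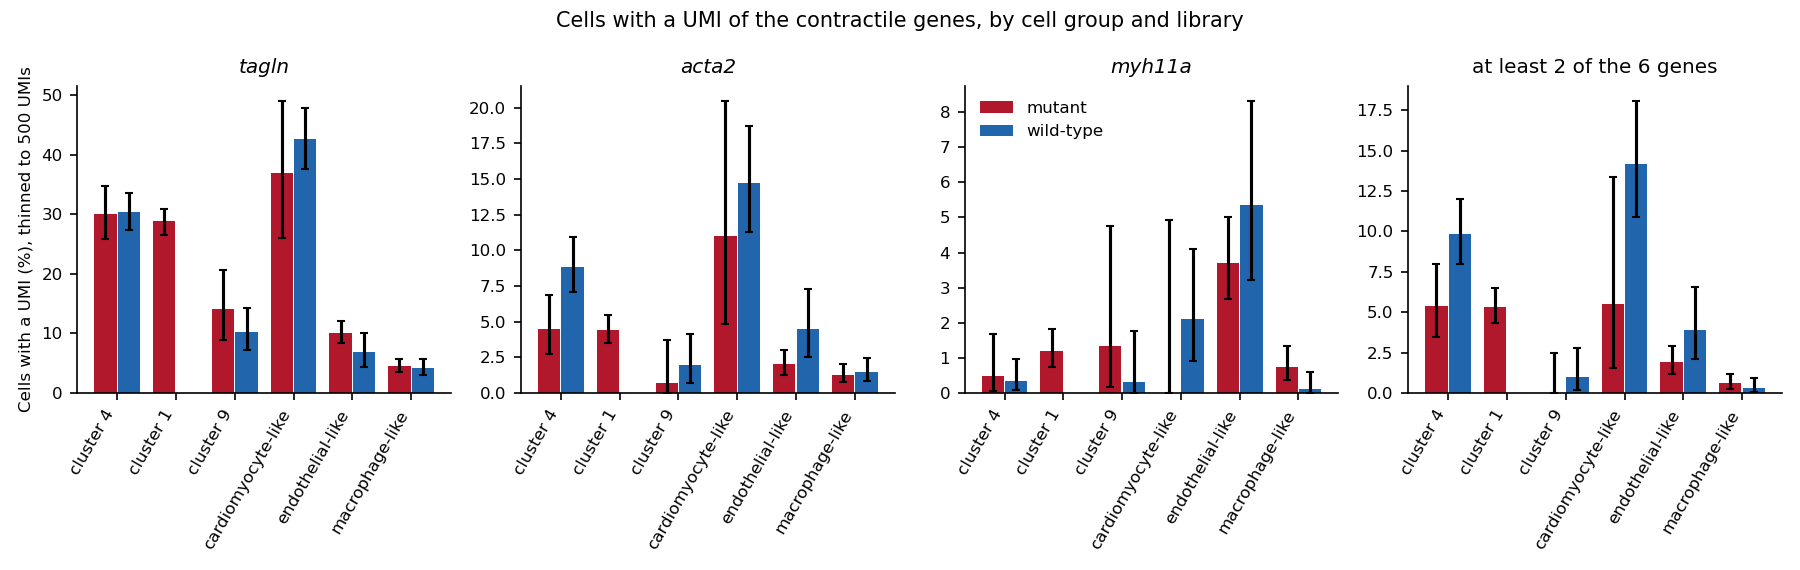
Share of cells with a UMI of tagln, acta2 or myh11a, or with at least 2 of the 6 genes (y axis, %), after thinning each cell to 500 UMIs, in mutant (red, left) and wild-type (blue, right) cells of groups with at least 50 cells; error bars are exact Clopper-Pearson 95% intervals. Macrophage-like cells show the level of detection in cells that should lack the genes.

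Within cluster 4, 4.47% (2.71% to 6.89%) of mutant and 8.83% (7.05% to 10.9%) of wild-type cells had an acta2 UMI at this depth, whereas tagln was found in 30.1% and 30.4%. In cluster 9 acta2 was found in 0.671% of mutant and 1.92% of wild-type cells, a share not distinguishable from that of macrophage-like cells. Of the 149 mutant cells of cluster 9, 0 had 2 of the genes together, which allows a share of up to 2.01% by 3 counts and 2.45% by the upper bound of the exact interval.

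The removed barcodes had too few genes or too large a mitochondrial share. They can hold poor cells as well as free RNA, so that they are not a pure measure of free RNA. They carried all 6 genes, at 83.6 CPM of acta2 and 397 CPM of tagln in the mutant and 112 and 362 CPM in the wild-type library. Fibroblast-like cells exceeded the removed barcodes in tagln, acta2 and tpm4b in both libraries, by log2 ratios of 1.34, 0.66 and 1.04 in the mutant and 1.64, 1.34 and 1.92 in the wild-type library. For mylka (−0.20, −0.74 to 0.35) and fhl2a (0.14, −0.32 to 0.61) mutant fibroblast-like cells were not told apart from the removed barcodes beyond counting error. In the wild-type library the same held for mylka (0.97, −0.15 to 2.35), on 63 and 7 UMIs, but not for fhl2a (1.72, 0.70 to 2.97). Subtracting a share of the removed-barcode profile set by haemoglobin left the acta2 ratio of mutant over wild-type fibroblast-like cells at −1.1 and that of fhl2a at −1.28. The removed barcodes themselves had log2 ratios of mutant over wild-type of −0.42 for acta2 and 0.13 for tagln, and both intervals include 0.

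Outside fibroblast-like cells the genes did not differ alike. In endothelial-like cells tagln stood at 254 CPM (232 to 277) in mutant and 149.5 CPM (118 to 187) in wild-type cells, a log2 ratio of 0.76 (0.41 to 1.13), and acta2 at 72.9 and 109 CPM, a ratio of −0.58 (−1.04 to −0.11). These values lay below the removed barcodes of the same library, at 397 and 362 CPM of tagln and 83.6 and 112 CPM of acta2. Of the 140 acta2 UMIs in mutant endothelial-like cells, single cells carried 41 and 27. No gene of the 5 with at least 50 UMIs was 2-fold higher or lower in endothelial-like cells, against 2.03% and 23.5% of 2459 genes. Relative to the median gene of −0.55, tagln was 1.31 higher and acta2 −0.03. Over 14 alternatives in processing, the endothelial-like ratio ran from 0.21 to 1.40 for tagln and from −1.53 to 0.39 for acta2. In cardiomyocyte-like cells acta2 stood at 247 CPM in the mutant library on 22 UMIs and at 653 CPM in the wild-type library on 289 UMIs, a log2 ratio of −1.40 (−2.10 to −0.78), while tagln stood at 2052 and 1809 CPM. The 2 clusters were unevenly mixed, with 33 mutant and 64 wild-type cells in cluster 14 and 49 and 357 in cluster 11. Within each, tagln had the opposite order, with log2 ratios of −0.27 (−0.57 to 0.03) in cluster 14 and −0.38 (−0.89 to 0.09) in cluster 11. Macrophage-like cells had 18.3 and 19.0 CPM of acta2 and 79.4 and 66.8 CPM of tagln, all below the removed barcodes, and the intervals overlapped. In all kept cells together the log2 ratio was −1.13 for acta2, −0.77 for tpm4b, −0.71 for fhl2a, −0.35 for tagln, −0.25 for mylka and 0.68 for myh11a, so that 1 of 6 genes was 2-fold lower and 0 were 2-fold higher, where 9.95% and 1.78% of 8415 genes were.

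The wider set of contractile and cytoskeletal genes in fibroblast-like cells had a median close to that of all genes. Of the 68 listed genes 34 had at least 50 UMIs, of which 0 were at least 2-fold higher and 1 was 2-fold lower in the mutant library, and their median log2 ratio was −0.35, against −0.37 over all genes. The 1 gene was fhl3b, another gene of the four-and-a-half-LIM family, at 40.9 CPM in mutant and 101 CPM in wild-type cells (log2 ratio −1.31, −1.61 to −1.0). Among actin-binding genes none of 10 passed 2-fold: tpm4a stood at 917 and 906 CPM, tagln2 at 286 and 433 CPM, and cnn3a, a calponin, at 110.3 and 201 CPM. Among myosin genes and their regulators none of 8 passed, with the regulatory light chain genes myl9a at 301 and 307 CPM, myl9b at 226 and 315 CPM, and myl12.1 at 299 and 427 CPM. Of the 13 LIM and adhesion genes fhl3b alone passed, and flna (filamin A), actn1 (α-actinin) and csrp1a stood at 851 and 617, 202 and 204, and 169.6 and 243 CPM. Vimentin (vim) stood at 54.6 and 83 CPM, synm at 11 and 8.43 CPM, and of the transcription genes only mrtfab, a myocardin-related factor, reached 50 UMIs (9.60 and 12.4 CPM). Within cluster 4, cnn2 (−1.07), pdlim1 (−1.01) and fhl3b (−1.08) were the 3 of 28 genes that were 2-fold lower, where 16.4% of all genes were.

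The wider set was also compared between fibroblast-like and other kept cells. Of 40 genes with at least 50 UMIs in the mutant library 4 were at least 2-fold higher and 2 were 2-fold lower in fibroblast-like cells, where 7.28% and 10.3% of all genes were, and of 36 in the wild-type library 7 were higher and 3 lower, where 8.08% and 16.9% were. The leiomodin gene lmod1b, which in mammals is a smooth muscle gene, stood at 34.8 against 10.4 CPM in the mutant library (log2 ratio 1.74) and 39.9 against 7.56 CPM in the wild-type library (2.40). It was nearly absent from cluster 9, with 1 UMI in the mutant and 2 in the wild-type library, against 51.4 and 49.6 CPM in cluster 4, and its log2 ratio of mutant over wild-type in cluster 4 was 0.05, with an interval (−0.51 to 0.59) that includes 0. By contrast, fhl3b was as high in cluster 9 as in cluster 4 in the wild-type library, with 101 CPM in cluster 4 against 100.3 CPM in cluster 9. The genes whose level over the 27 cluster sums was most like that of the 6 genes together, among 3881 genes with at least 200 UMIs outside the lists, were sept10, mgst3a, si:ch211-253b8.5, aopep, rtn1a, tubb6, ctnnb1, rtn4a, cdh2 and st8sia6, with correlations between 0.833 and 0.767. Of these cdh2 encodes N-cadherin and ctnnb1 β-catenin, partners at cell-cell junctions. The level of the 6 genes together was mostly that of tagln in fibroblast-like cells.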

How the data were processed

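The authors deposited 1 matrix of raw UMI counts per gene and barcode for each library, before the filter on genes and mitochondrial share. The Chromium 3′ libraries were run on dead-cell-depleted suspensions of border zone and injured tissue. The submitters' processing notes name STARsolo, Scanpy and the danRer11 build. The 6 genes were matched by symbol and all 6 identifiers were found in the gene name table; coordinates are not printed because the reference table is of another build. Barcodes with more than 300 genes and at most 70% of UMIs in the 13 mt- genes were kept. Counts were scaled to 1000000 non-mitochondrial UMIs summed over cells. Clusters came from scanpy 1.11.5 (Leiden, resolution 1, 50 components, 15 neighbours) without the contractile, actin, ribosomal, mitochondrial and stress genes and cd74a and cd74b. A name needed at least 3 markers 2-fold higher than in the rest of the library and a median log2 ratio of at least 0.5 over its markers. That median had to lead candidate names of other cell families by 0.5. Among the 10 leading genes, the family also needed at least as many markers as any other. No doublet caller was run. Levels have exact Poisson, ratios exact conditional and shares Clopper-Pearson intervals (95%), covering counting error alone; as each genotype had 1 library, no test was made, and a gene was called at 2-fold with at least 50 UMIs. Routines were tested on simulated data. For shares, cells were thinned to 500 UMIs, leaving out 12 mutant and 4 wild-type fibroblast-like cells.

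The 6 genes, the wider list (68 of 71 genes listed) and the markers were chosen with earlier results of these data known. As no cluster could be named mural-like, the planned comparison of mural-like cells was replaced by fibroblast-like against all other kept cells. The comparison of clusters 4 and 9, the selection of cells by mural markers and 3 alternatives were added after seeing the data. Named were the 6 genes, of the wider list the 3 per role with most UMIs in fibroblast-like cells and those past 2-fold between genotypes, and the 10 genes most alike in level. The genes lmod1b, acta1a, acta1b, ACTC1, actb1, actb2, mural and leading marker genes were named after their values were seen.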

Additional observations from a re-analysis of the deposited data

How the results depend on the processing

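No paired analysis was possible because each genotype had 1 library and the labels carry no replicate numbers. The sum of the 6 genes was mostly tagln in fibroblast-like cells, with 1004 of 1272 CPM in mutant and 1130.4 of 1647 CPM in wild-type cells. The log2 ratio of the 6 genes summed, mutant over wild-type in fibroblast-like cells (−0.37), was −0.57 with all UMIs as the total, −0.01 scaled to the median gene, −0.20 without ribosomal protein genes, −0.17 as a mean over cells, −0.25 after subtracting free RNA by macrophage markers, −0.45 and −0.62 at Leiden resolutions 0.5 and 2, and −0.31 with the contractile genes left in the clustering. It was 0.79 within cluster 1 (29 wild-type cells), −0.50 within cluster 4, 0.49 within cluster 9, −0.46 without cluster 1 and −0.28 without cells over 10000 UMIs, the last 2 added after seeing the data. The count of the 6 genes at least 2-fold lower (2) was 4 with all UMIs and at resolution 2, 1 with the genes left in, within cluster 9 and without cells over 10000 UMIs, and 0 with the median gene, without ribosomal genes, as a mean over cells and within cluster 1. The fhl2a ratio was 0.07 within cluster 1 (65 mutant and 1 wild-type UMIs) and 0.24 within cluster 9 (3 and 5 UMIs), and both intervals include 0. The acta2 ratio was negative in 18 of 18 alternatives, between −1.73 within cluster 9 and −0.62 within cluster 1, where its intervals also include 0. All alternatives re-use the same 2 libraries.

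The summed ratio of fibroblast-like over other kept cells, 1.63 in the mutant library, was 1.75 with all UMIs, 1.19 as a mean over cells, 2.33 after subtracting free RNA by haemoglobin, 0.84 with more than 500 genes, 0.91 at resolution 2, 1.92 with the genes left in and 1.56 without cluster 1. In the wild-type library, 1.61 became 1.70 with all UMIs and with the median gene, 1.16 as a mean over cells, 1.83 by haemoglobin, 0.65 with more than 500 genes, where tpm4b stood at −0.15, 1.69 and 1.71 at resolutions 0.5 and 2, and 1.5 without cells over 10000 UMIs. Free RNA by macrophage markers gave no value here, since that share reached 100% in the other kept cells. For the wider list the median ratio of −0.35 was 0.01 with the median gene, and the 1 gene at least 2-fold lower became 3 with all UMIs, 0 with the median gene, 5 with more than 500 genes, 2 at resolution 2 and 6 without the filter on UMIs. At 1000 UMIs per cell the shares of mutant and wild-type fibroblast-like cells were 6.54% and 9.74% for acta2, 46.3% and 38.1% for tagln, and 11.3% and 15.2% for at least 2 genes; without thinning they were 8.99% and 10.3%, 48.6% and 45.0%, and 15.7% and 17.7%. The cause of these changes was not tested. Depth limits mylka, myh11a and fhl2a most, which had between 32 and 121 UMIs per library in fibroblast-like cells.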
